A study of Mus musculus with 8 samples.

Results

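The semaphorins, their plexin receptors and the neuropilin co-receptors were followed in the hippocampus of grown mice with and without the potassium channel Kv10.1. The members are all probe sets whose platform gene symbol begins with Sema3 to Sema7 or with Plxn, or is Nrp1 or Nrp2. This gave 31 genes, each with 1 probe set, out of 20985 probe sets on the array. They are 20 semaphorins, 9 plexins and 2 neuropilins. The groups were 4 Kv10.1 -/- knockout mice and 4 Kv10.1 +/+ wildtype mice, all male and aged 8 weeks, with no treatment. Total RNA of the hippocampus of 1 mouse was hybridised to each Affymetrix array, so the spread within a genotype is a spread between animals. The sources used here do not give the strain, the litters or the deleted part of Kcnh1, the gene of Kv10.1. Values are the deposited log2 expression levels, and differences are knockout minus wildtype on that scale.

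Semaphorins are ligands that steer growing axons and, in grown tissue, act on spines, synapses and vessels. Class 3 members are secreted and most reach their plexin through a neuropilin, classes 4, 5 and 6 span the membrane, and Sema7a is held there by a lipid anchor. Plexins carry the signal inward through a domain that acts on small GTPases. In the hippocampus this system is known for the layered ending of mossy fibres in CA3 and for limiting synapses and spines on dentate granule cells.

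Kcnh1 averaged 8.35 ± 0.062 in knockout mice and 9.34 ± 0.131 in wildtype mice (SD, n = 4 each), and was lower in each knockout mouse (limma adjusted p = 0.00319). Dentate granule cell markers were read at 7.26 to 11.98 over 14 genes, with Prox1, the granule cell transcription factor, between 10.19 and 10.88 on the 8 arrays. Array medians ran from 7.50 to 7.55. The arrays of wildtype 1 (score 32.0) and knockout 1 (14.9) stood apart on the first principal component, where the other 6 lay between -15.9 and 0.81. In bulk tissue, fewer cells of a type and less RNA per cell cannot be told apart.

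No member passed the test. The limma fit called 0 of 31 members at an adjusted p under 0.05, where it called 0.00477% of all probe sets, namely Kcnh1 alone. At an unadjusted p under 0.05 it returned 1 member of 31, Plxna4, against 3.16% of all probe sets. That is about the background share. The groups did not overlap for 1 of 31 members, again Plxna4, against 2.16% of all probe sets (0.967% with knockouts higher and 1.19% with knockouts lower). The median difference of the members was -0.035 (range -0.22 to 0.18) beside -0.0025 for all probe sets, and 20 members lay below 0 and 11 above, where 50.9% of all probe sets lay below and 48.1% above. With lower against higher mouse numbers as a block (1 knockout and 3 wildtypes had lower ones, 3 and 1 higher ones) the split turned to 14 below and 17 above, with a median of 0.027. It was 14 below and 17 above without knockout 4, and 14 below and 16 above without wildtype 1. Other runs leaned further below 0. The split was 24 below and 7 above without wildtype 2, and 23 below and 8 above without knockout 1. Without both knockout 1 and wildtype 1 it was 23 below and 7 above. Of the 27 members kept without the dimmest 50% of probe sets, 20 lay below and 7 above. The 95% interval of each of the 31 members lay within a 1.38-fold change in either direction, so any larger mean change lies outside the intervals of this fit. The smallest limma adjusted p among the members was 0.997.

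**Figure D1:**
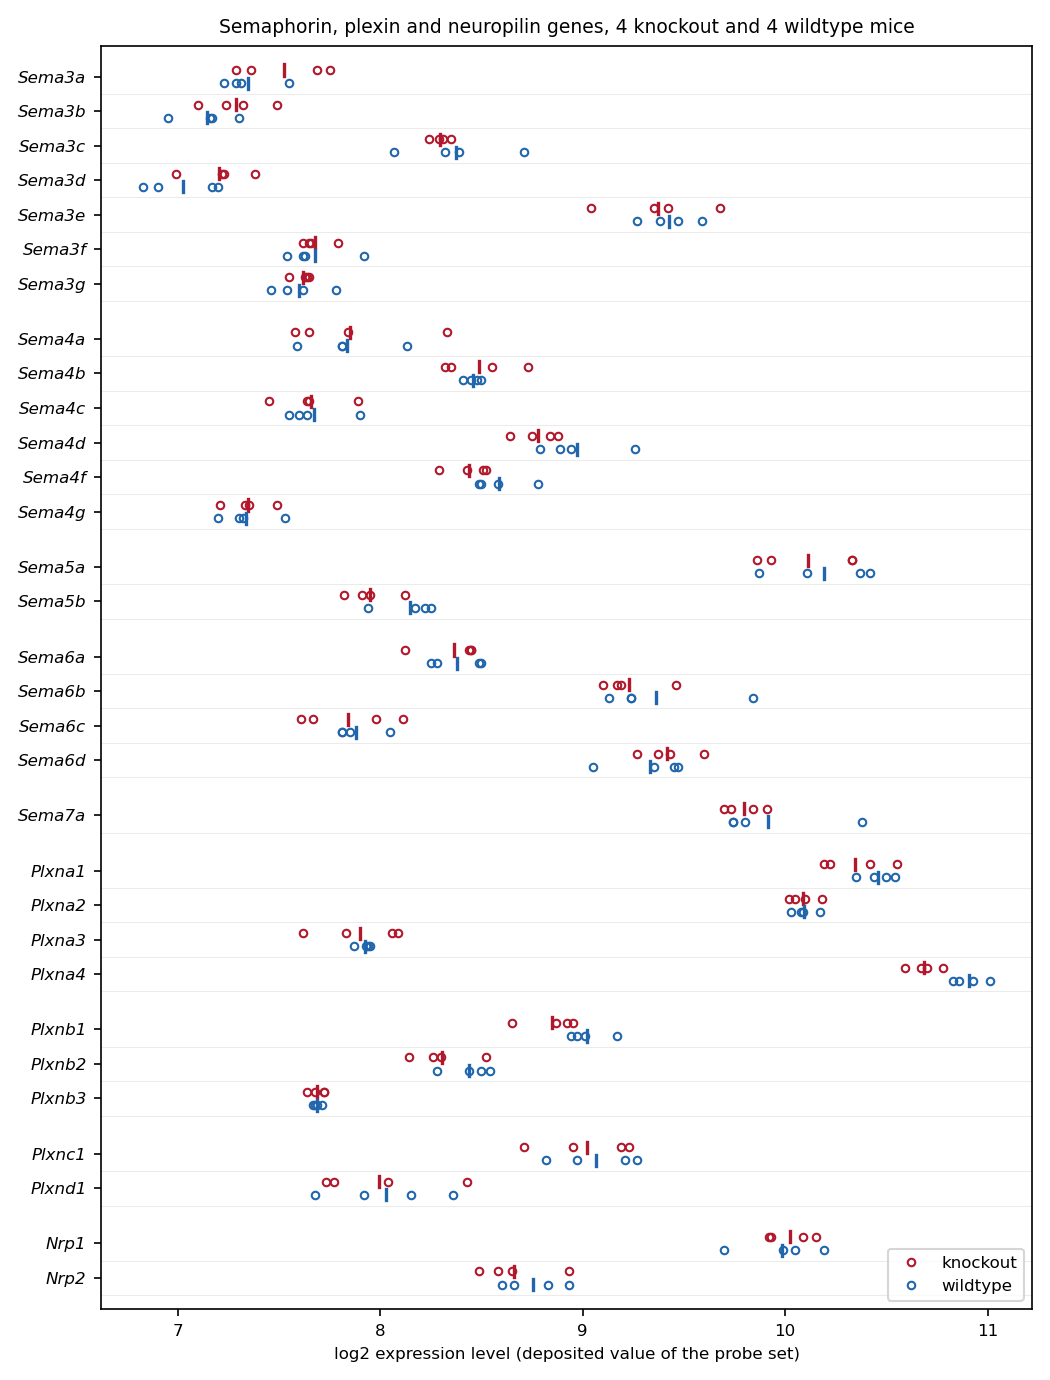
Deposited log2 level of each member (horizontal axis) in the 4 knockout mice (red, upper row of each gene) and the 4 wildtype mice (blue, lower row); circles are mice and vertical ticks are group means. The 2 colours overlap for every gene but Plxna4, whose knockout values run from 10.59 to 10.78 and whose wildtype values run from 10.83 to 11.01.

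The signal of a probe set depends on its probes as well as on its transcript, so the levels of different members are not ranked here. To see which signals could be low through lack of transcript, the 1272 probe sets of olfactory and vomeronasal receptors, genes not expected in brain, were taken as a guide. All 31 members averaged above the 95th percentile of those probe sets, 6.84, as did 67.7% of all probe sets. Sema3a, Sema3b, Sema3d and Sema4g lay under their 99th percentile, 7.50. For these 4 genes a small difference is therefore read close to the signal of genes taken as silent.

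Promoters of members are shown for Sema5b, which had the smallest p among the ligands, for Sema7a, whose values set 1 wildtype mouse apart, and for Sema3a and Sema3c, which mark the ends of the CpG range among the 5 class 3 genes that have a window (Sema3b and Sema3f have none). RefSeq windows (GRCm38.p6) were at hand for 26 of the 31 members, 37 windows in all. The sequences are the 250 bases before the start, 5′ to 3′ on the gene's strand, with each CpG in capitals.
Sema5b: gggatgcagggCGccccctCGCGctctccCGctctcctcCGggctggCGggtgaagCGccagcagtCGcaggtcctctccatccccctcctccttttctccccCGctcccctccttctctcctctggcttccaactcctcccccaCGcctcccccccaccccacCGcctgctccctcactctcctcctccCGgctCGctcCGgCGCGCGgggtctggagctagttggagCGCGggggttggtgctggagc
Sema7a: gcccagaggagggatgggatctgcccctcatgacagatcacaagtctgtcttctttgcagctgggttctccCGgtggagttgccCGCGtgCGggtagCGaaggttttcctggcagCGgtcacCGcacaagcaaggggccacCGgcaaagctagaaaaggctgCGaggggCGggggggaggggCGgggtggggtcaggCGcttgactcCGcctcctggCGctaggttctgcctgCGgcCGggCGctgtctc
Sema3a: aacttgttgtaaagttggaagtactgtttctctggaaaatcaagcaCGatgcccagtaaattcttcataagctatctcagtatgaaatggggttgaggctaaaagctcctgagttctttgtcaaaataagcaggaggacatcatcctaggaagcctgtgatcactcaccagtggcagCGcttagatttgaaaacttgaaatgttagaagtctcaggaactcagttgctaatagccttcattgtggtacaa
Sema3c: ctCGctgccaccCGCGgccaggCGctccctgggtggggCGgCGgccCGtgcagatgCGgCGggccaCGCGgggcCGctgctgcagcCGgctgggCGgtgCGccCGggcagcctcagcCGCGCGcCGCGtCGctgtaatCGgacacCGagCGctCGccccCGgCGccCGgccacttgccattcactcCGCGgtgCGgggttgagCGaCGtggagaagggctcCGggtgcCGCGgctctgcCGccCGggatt
The windows lie on the forward strand at chr16:35541112-35541361 for Sema5b, chr9:57939862-57940111 for Sema7a, chr5:13396534-13396783 for Sema3a and chr5:17574566-17574815 for Sema3c. That of Sema3a lies inside the span RefSeq gives the gene. They hold 19 CpG in Sema5b, 17 in Sema7a, 2 in Sema3a and 39 in Sema3c. Over the 37 member windows the median was 13 CpG (range 0 to 39), against 6 over all 32851 RefSeq windows of the same length. Read on both strands, the GC box GGGCGG was in 73.0% of member windows and 32.7% of all windows, the CCAAT box (CCAAT) in 18.9% and 33.8%, and the TATA box (TATAAA) in 0 of 37 and 12.4%. The cAMP response element TGACGTCA was in 0 of 37 member windows and 1.55% of all. Several windows share a gene, and these counts describe letters only.

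Among the secreted class 3 ligands, 5 of 7 differences lay above 0 and none passed the test. Of those above 0, Sema3a, Sema3b and Sema3d averaged under 7.50, the 99th percentile of the olfactory and vomeronasal receptor probe sets. Leaving out the dimmest 50% of probe sets dropped these genes. It left 4 of the class, 2 above 0 and 2 below, with a median of -0.026. Sema3d had the smallest p of the class. It read 7.23, 7.38, 6.99 and 7.22 in knockouts 1 to 4, against 7.20, 7.17, 6.83 and 6.90 in wildtypes 1 to 4. The groups overlapped, and the difference was 0.18 ± 0.111 (SE; unadjusted p = 0.134, limma). Sema3a, the repellent that acts through Nrp1 and plexin A, averaged 7.52 ± 0.231 in knockouts and 7.35 ± 0.141 in wildtypes (SD, n = 4 each), a difference of 0.18. That was 0.10 without knockout 1 and 0.29 with the mouse number block (unadjusted p = 0.0362, limma). Sema3b, an axon repellent that can act through Nrp2, differed by 0.14. Sema3c, an attractant or repellent by cell type, averaged 8.30 ± 0.046 in knockouts and 8.37 ± 0.264 in wildtypes (SD, n = 4 each), a difference of -0.075. Its wildtype values ran from 8.07 to 8.71 while the knockout values kept between 8.24 and 8.35. Sema3e, which can bind Plxnd1 without a neuropilin, differed by -0.055, with knockout values from 9.04 to 9.68. Sema3f, the Nrp2 ligand that limits spines on dentate granule cells, averaged 7.68 in both groups with a difference of 0.0025. Sema3g, a vessel-associated ligand, averaged 7.62 in knockouts and 7.60 in wildtypes. Sema3d, Sema3a, Sema3e and Sema3c lie on chromosome 5 in that order, with 0 measured genes between Sema3d and Sema3a, 2 between Sema3a and Sema3e, and 4 between Sema3e and Sema3c. Of these neighbours Sema3d and Sema3a lay above 0 and Sema3e and Sema3c below.

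The transmembrane class 4 ligands were split, with 3 of 6 above 0. Sema4d, the ligand of Plxnb1 that is also made by oligodendrocytes, read 8.88, 8.84, 8.75 and 8.64 in knockouts 1 to 4. In wildtypes 1 to 4 it read 9.26, 8.79, 8.94 and 8.89. Wildtype 1 was the highest array and the groups overlapped. The difference of -0.19 ± 0.105 (SE, unadjusted p = 0.0957, limma) was -0.096 without wildtype 1. The mean deviation of 13 oligodendrocyte markers was -0.01, 0.11, 0.14 and -0.03 in knockouts 1 to 4. In wildtypes 1 to 4 it was 0.06, -0.09, -0.14 and -0.03. Of these markers 10 had a difference above 0 and 3 below. At an unadjusted p under 0.05 (limma) 4 were higher in knockouts, against 1.63% of all probe sets. The part of oligodendrocyte content in the Sema4d values was not tested. Sema4a, better known from immune cells, read 8.33, 7.84, 7.58 and 7.65 in knockouts 1 to 4 and 8.13, 7.59, 7.81 and 7.81 in wildtypes 1 to 4. Knockout 1 and wildtype 1 were the highest arrays of their groups, and the means were 7.85 in knockouts and 7.84 in wildtypes. Sema4f, which binds the postsynaptic scaffold PSD-95, differed by -0.15, or by -0.086 without wildtype 1. Sema4b differed by 0.028, the Plxnb2 ligands Sema4c and Sema4g by -0.015 and 0.0075.

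Both class 5 ligands, which carry thrombospondin repeats, lay below 0 in knockouts without passing the test. Sema5b read 7.95, 7.91, 8.12 and 7.82 in knockouts 1 to 4, against 8.25, 7.94, 8.22 and 8.17 in wildtypes 1 to 4. Of the wildtype mice, wildtype 2 alone lay within the knockout range. The difference was -0.20 ± 0.093 (SE; unadjusted p = 0.0607, limma), and with 1 mouse left out it ran from -0.26 without wildtype 2 (unadjusted p = 0.0155) to -0.15 without knockout 4 (unadjusted p = 0.155). Wildtype 2 was also the highest array for all 13 choroid plexus markers, against 5.49% of all probe sets. Their mean deviation was 0.66 there, against -0.22 to -0.02 in the knockouts and -0.12 to 0.03 in the other wildtypes. Their part was not tested. Sema5a, which restrains synapse formation on dentate granule cells through Plxna2, read 9.86, 9.93, 10.33 and 10.33 in knockouts 1 to 4. In wildtypes 1 to 4 it read 10.11, 9.87, 10.42 and 10.37. Knockouts 1 and 2 and wildtype 2 were the low arrays, and the difference was -0.080, or 0.0042 without knockout 1. The mean deviation of 14 dentate granule cell markers was -0.16, -0.12, 0.05 and 0.02 in knockouts 1 to 4 and 0.08, -0.05, 0.07 and 0.10 in wildtypes 1 to 4. Its 3 low arrays were the 3 low arrays of Sema5a. Of these 14 markers 13 had a difference below 0, and 1, Dsp, had one at an unadjusted p under 0.05 in that direction. The part of dentate content in the class 5 values was not tested.

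Class 6 ligands, which act from the membrane on plexin A receptors, showed 3 differences below 0 and 1 above. Sema6b, a ligand of Plxna4, read 9.46, 9.17, 9.19 and 9.10 in knockouts 1 to 4, against 9.84, 9.24, 9.13 and 9.24 in wildtypes 1 to 4. Wildtype 1 stood above all other arrays, and the difference of -0.13 ± 0.148 (SE; unadjusted p = 0.392, limma) was 0.027 without it. Sema6a, which with Plxna2 and Plxna4 shapes mossy fibre layering, differed by -0.015, with knockout 4 at 8.12 and the other knockouts at 8.44 to 8.45. Sema6c differed by -0.038. Sema6d, a ligand of Plxna1, averaged 9.42 in knockouts and 9.33 in wildtypes, a difference of 0.088.

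Sema7a, the lipid-anchored ligand of Plxnc1 and of integrin beta 1, was set by a single mouse. It read 9.91, 9.70, 9.84 and 9.73 in knockouts 1 to 4 and 10.38, 9.80, 9.74 and 9.74 in wildtypes 1 to 4. The difference was -0.12 ± 0.137 (SE; unadjusted p = 0.401, limma), and 0.035 without wildtype 1. Markers of thalamus and habenula, tissue that borders the hippocampus, were also highest in wildtype 1 for 7 of 10 genes, against 22.3% of all probe sets. Their mean deviation was -0.13, -0.03, 0.10 and -0.18 in knockouts 1 to 4 and 0.47, -0.08, -0.04 and -0.10 in wildtypes 1 to 4. Tac2, a peptide gene of the habenula, read 8.66 in wildtype 1, against 6.76 to 6.82 in the knockouts and 6.64 to 7.02 in the other wildtypes. Not all of these markers moved so: Tcf7l2, a defining thalamic factor, read 8.44 in wildtype 1 and 8.33 to 8.53 elsewhere. The part of such tissue in the Sema6b and Sema7a values was not tested.

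**Figure D2:**
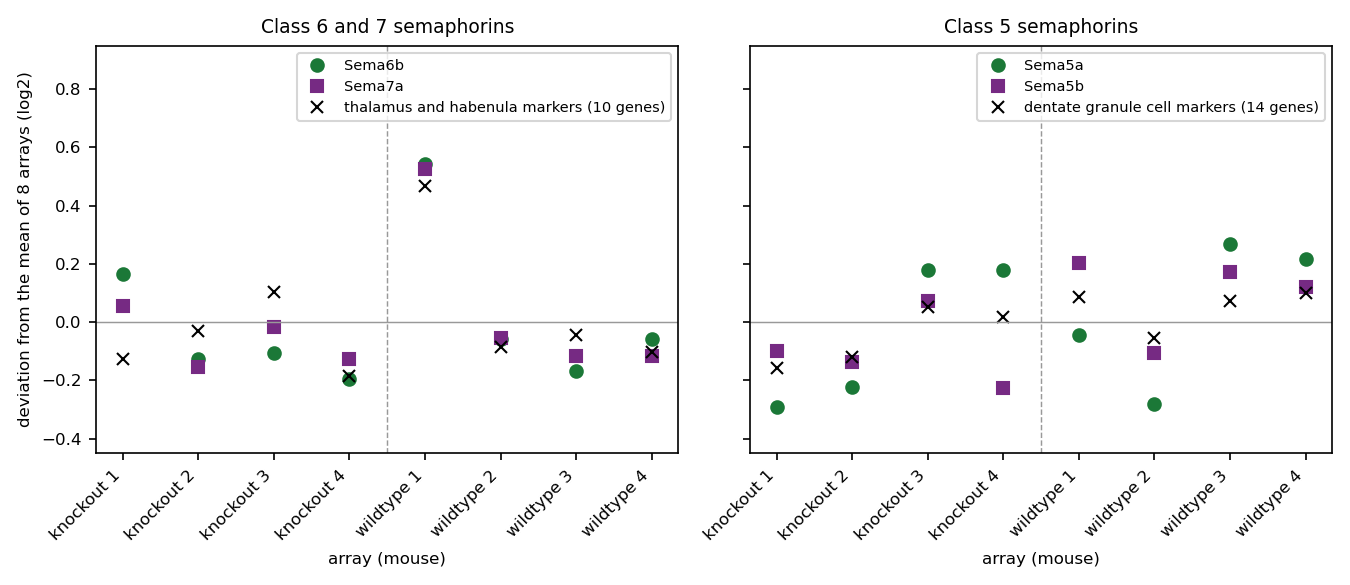
Deviation from the mean of 8 arrays (log2, vertical axis) for each mouse, knockouts left of the dashed line and wildtypes right of it. Left, Sema6b, Sema7a and the mean of 10 thalamus and habenula markers are all highest in wildtype 1 (0.47 for the markers); right, Sema5a and the mean of 14 dentate markers are low in knockouts 1 and 2 and wildtype 2, and Sema5b is lowest in knockout 4.

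All 4 plexin A receptors, which pair with neuropilins for class 3 ligands and bind class 6 ligands directly, had a difference below 0, and none passed the test. With the mouse number block 2 of the 4 turned, Plxna2 to 0.027 and Plxna3 to 0.028. Plxna4, the receptor for Sema6a and Sema6b and a partner of Nrp1 for Sema3a, read 10.59, 10.67, 10.78 and 10.70 in knockouts 1 to 4. In wildtypes 1 to 4 it read 11.01, 10.86, 10.83 and 10.93. Each knockout mouse lay below each wildtype mouse. The means were 10.69 ± 0.079 in knockouts and 10.91 ± 0.080 in wildtypes (SD, n = 4 each), a difference of -0.22 ± 0.073 (SE), or 1.17-fold. It did not pass over all genes (unadjusted p = 0.0116, limma adjusted p = 0.997), and 1.53% of all probe sets were lower at an unadjusted p under 0.05. Within the lower mouse numbers the difference was -0.31 (1 knockout against 3 wildtypes), within the higher -0.21 (3 against 1), and -0.26 with the number series as a block (unadjusted p = 0.0101). Without both arrays that stand apart it was -0.16 (unadjusted p = 0.0665). Its ligand genes Sema6a and Sema6b and its partner Nrp1 differed by -0.015, -0.13 and 0.040.

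Plxna2, the receptor of Sema5a and Sema6a, was among the steadiest members. It read 10.02 to 10.18 in knockouts and 10.03 to 10.17 in wildtypes, a difference of -0.0050 with a 95% interval from -0.16 to 0.15. Its gene lies on chromosome 1 close to the disrupted Kcnh1, with 11 measured genes between them. Plxna1 differed by -0.11, with knockout values from 10.19 to 10.55 and wildtype values from 10.35 to 10.54. It was -0.18 without knockout 1, -0.061 without knockout 4 and -0.0083 with the mouse number block. Plxna3, which with Nrp2 serves Sema3f, averaged 7.90 ± 0.220 in knockouts and 7.92 ± 0.036 in wildtypes (SD, n = 4 each). Its 4 knockout values spread from 7.62 to 8.09, the wildtype values from 7.87 to 7.95.

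Among plexin B receptors, which serve class 4 ligands, Plxnb1 had the smallest p. It read 8.95, 8.87, 8.92 and 8.65 in knockouts 1 to 4, against 9.17, 8.97, 8.94 and 9.01 in wildtypes 1 to 4. Knockout 1 alone reached into the wildtype range. The difference was -0.18 ± 0.088 (SE; unadjusted p = 0.0721, limma), or -0.11 without knockout 4. The Sema4d and Plxnb1 differences thus lay on the same side, and neither passed the test. Plxnb2 differed by -0.14, by -0.21 without knockout 1 (unadjusted p = 0.0421), by -0.080 without knockout 4 (unadjusted p = 0.427) and by -0.010 with the mouse number block (unadjusted p = 0.902). Plxnb3 differed by 0.0025, and its 8 values kept between 7.64 and 7.72.

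The remaining plexins varied more between mice. Plxnd1, the Sema3e receptor of vessels and some neurons, had the largest SD of all members over 8 arrays, 0.286. It read 8.43, 8.04, 7.77 and 7.73 in knockouts 1 to 4 and 8.36, 7.68, 8.15 and 7.92 in wildtypes 1 to 4, a difference of -0.035. Plxnc1, the Sema7a receptor, read 9.23, 9.19, 8.71 and 8.95 in knockouts 1 to 4 and 9.21, 9.27, 8.97 and 8.82 in wildtypes 1 to 4, a difference of -0.048 ± 0.135 (SE; unadjusted p = 0.731, limma). The mean deviation of 12 endothelial markers, which could move with Plxnd1, was -0.06, 0.08, -0.04 and -0.17 in knockouts 1 to 4 and 0.17, -0.05, 0.16 and -0.09 in wildtypes 1 to 4. Wildtypes 1 and 3 were above their mean and knockout 4 below it in both the markers and Plxnd1, while knockout 1, the highest array for Plxnd1, was at -0.06 in the markers. Their part in the Plxnd1 values was not tested.

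Of the neuropilins, Nrp1, the Sema3a co-receptor that also binds VEGF, averaged 10.02 ± 0.115 in knockouts and 9.98 ± 0.206 in wildtypes (SD, n = 4 each). Wildtype 1 was its lowest array at 9.70, where the other 7 read 9.92 to 10.19. Nrp2, the Sema3f co-receptor, read 8.93, 8.65, 8.58 and 8.49 in knockouts 1 to 4 and 8.93, 8.83, 8.66 and 8.60 in wildtypes 1 to 4. Both groups had the same highest value, and the difference was -0.093 ± 0.110 (SE; unadjusted p = 0.417, limma).

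**Figure D3:**
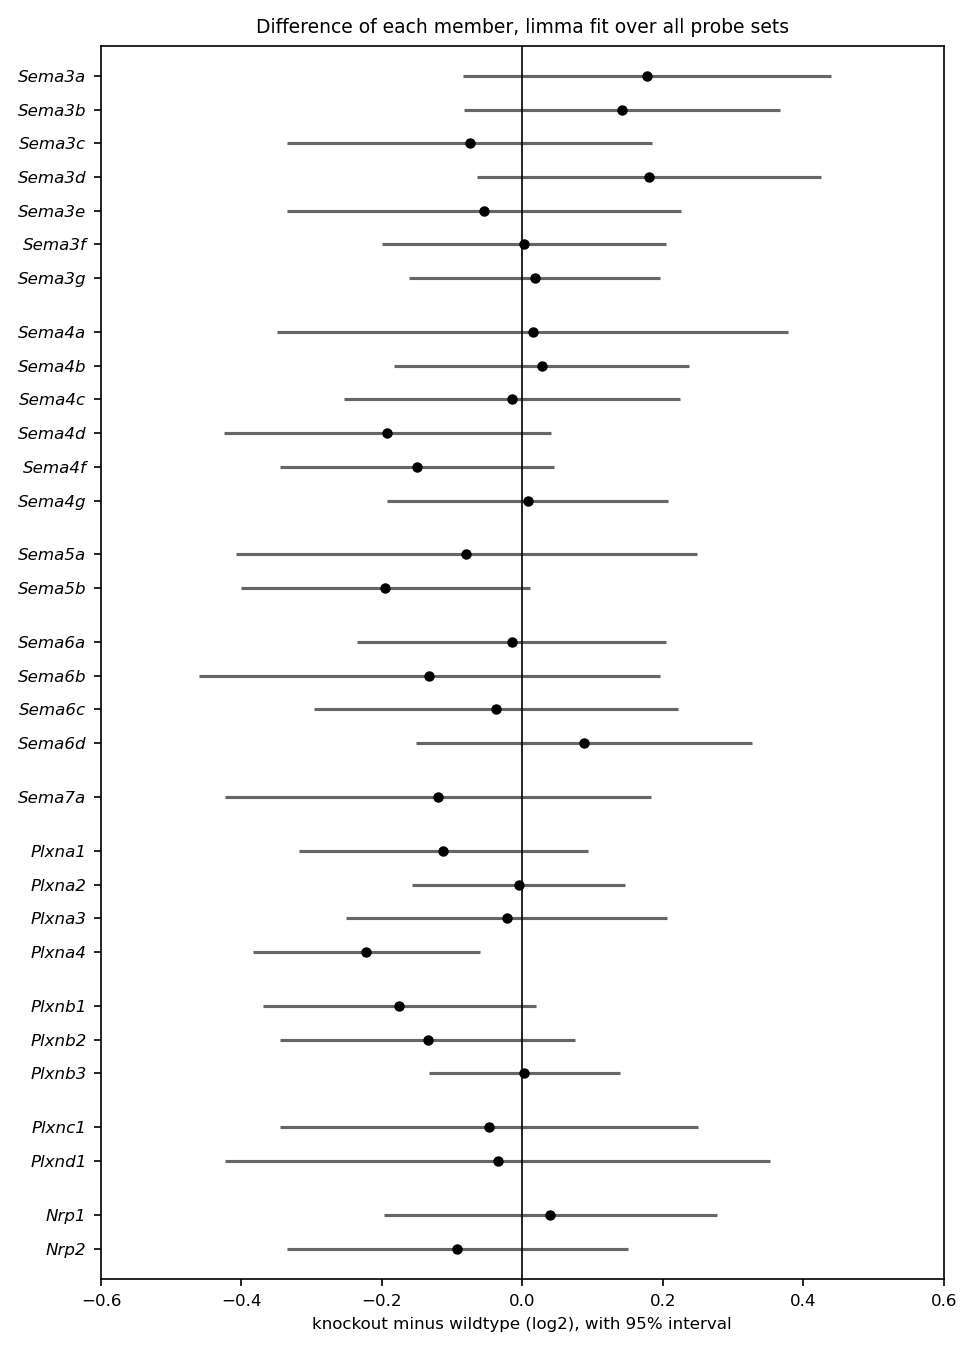
Knockout minus wildtype difference of each member (log2, horizontal axis) as a point with its 95% interval from limma, grouped by class. The interval of Plxna4, from -0.38 to -0.06, is the single one that leaves out 0; its adjusted p is 0.997.

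The highest and lowest values of the 31 members gathered on few arrays. The highest value lay on the array of wildtype 1 alone for 12 members, of knockout 1 alone for 8, and on both at once for Nrp2, together 21 of 31 or 67.7%, against 35.3% of all probe sets. The values of these arrays were also the most widely spread. Their interquartile range was 2.42 in wildtype 1 and 2.30 in knockout 1, against 2.09 to 2.21 on the others. The lowest value lay on knockout 4 for 12 members, where 17.8% of all probe sets had theirs. The mean deviation of the members was 0.10, -0.02, -0.04 and -0.12 in knockouts 1 to 4 and 0.14, -0.03, -0.02 and -0.02 in wildtypes 1 to 4. One high and one low array thus fell among the knockouts, and one high array among the wildtypes. The median SD within genotypes was 0.162 for the members and 0.132 for all probe sets. The median level was 8.37 for the members and 7.52 for all probe sets, so the shares and SD over all probe sets rest on mostly dimmer signals. The part of array spread and of level in these counts was not tested. Several other lists, by mean deviation, were also highest in wildtype 1 and lowest in knockout 4, namely the 10 thalamus and habenula markers (0.47 and -0.18), the 10 astrocyte markers (0.20 and -0.19), the 6 oligodendrocyte precursor markers (0.19 and -0.18), the 12 endothelial markers (0.17 and -0.17) and 45 partner genes of these receptors (0.11 and -0.10). The dentate granule cell, CA1, CA2 and CA3, oligodendrocyte, microglia, choroid plexus, meninges and fibroblast, and interneuron lists did not show both. Wildtype 1 or knockout 1 held the highest value for 28 of those 45 partner genes, against 35.3% of all probe sets. Among the marker lists this ran from 0 of 13 choroid plexus markers to 7 of 10 for both the astrocyte and the thalamus and habenula markers. The part of any of these in the members' values was not tested.

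**Figure D4:**
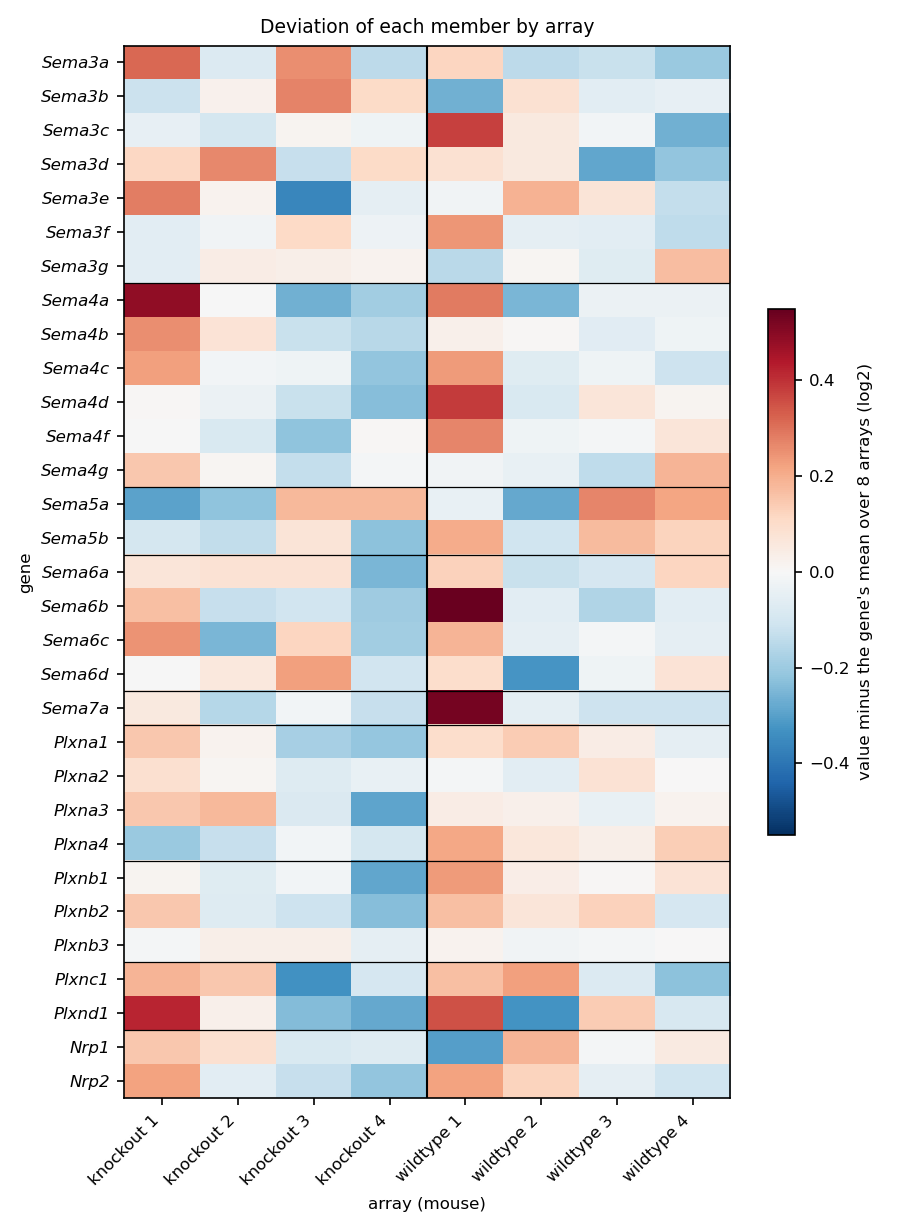
Value of each member on each array minus its mean over 8 arrays (log2, colour), knockouts left of the vertical line and wildtypes right of it, genes grouped by class. Columns of knockout 1 (mean 0.10) and wildtype 1 (0.14) are mostly red and that of knockout 4 (-0.12) mostly blue, with Sema5a, Sema3b and Nrp1 among the exceptions in wildtype 1.

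Genes that act beside or below these receptors were read from a list of 46, of which 45 were measured. None passed over all genes, and at an unadjusted p under 0.05 there were 2 higher and 1 lower, against 1.63% and 1.53% of all probe sets. The groups did not overlap for 2 of 45, Met and Rhoa, both with knockouts higher, against 0.967% of all probe sets. Met, the growth factor receptor that couples to plexin B, read 7.21, 7.37, 7.63 and 7.13 in knockouts 1 to 4. In wildtypes 1 to 4 it read 6.82, 6.90, 6.84 and 7.10. The groups did not overlap, and the difference was 0.42 ± 0.113 (SE, unadjusted p = 0.00375, limma adjusted p = 0.997). Both group means, 7.335 in knockouts and 6.915 in wildtypes, lie under 7.50, the 99th percentile of the genes taken as silent. The difference is therefore read close to their signal. Rhoa, the GTPase switched on by plexin B through exchange factors, read 11.03, 11.01, 10.94 and 10.95 in knockouts 1 to 4, against 10.75, 10.88, 10.80 and 10.77 in wildtypes 1 to 4. The difference was 0.18 ± 0.065 (SE; unadjusted p = 0.0182, limma adjusted p = 0.997). Mical3, of the MICAL family that oxidises actin below plexin A, differed by -0.26 ± 0.0997 (SE; unadjusted p = 0.0252, limma adjusted p = 0.997), or -0.15 with the mouse number series as a block. Gipc1, which binds the tail of Nrp1, differed by -0.30, or -0.10 without wildtype 1, which read 9.09 where the knockouts read 7.95 to 8.36 and the other wildtypes 8.19 to 8.43. The median difference of the 45 genes was -0.030.

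**Figure D5:**
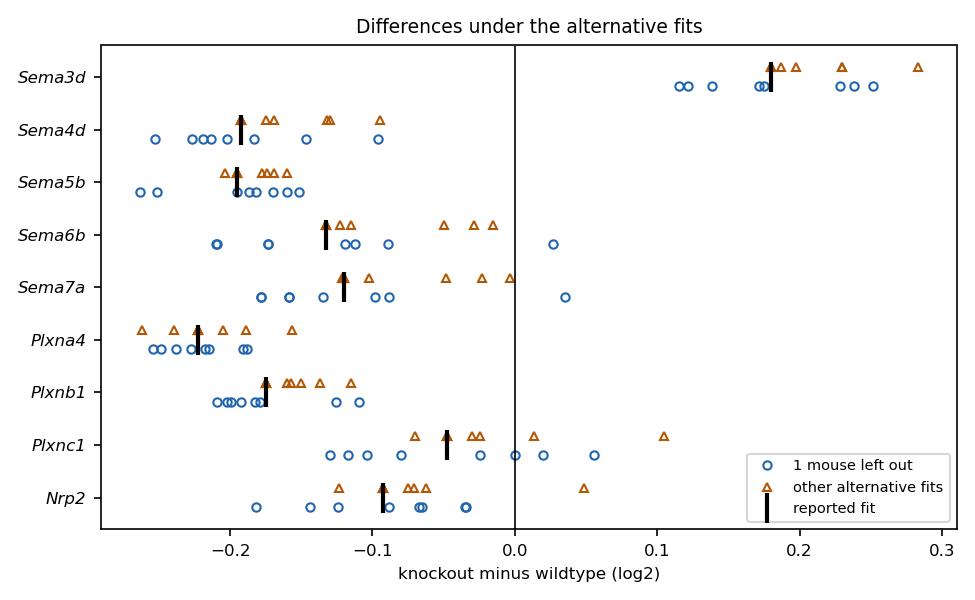
Knockout minus wildtype difference (log2, horizontal axis) for the member with the smallest p in each class, in the reported fit (bar), with 1 mouse left out (circles) and under the other alternative fits (triangles). Plxna4 stays between -0.26 and -0.16, while Sema6b, Sema7a, Plxnc1 and Nrp2 have values on both sides of 0.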

How the data were processed

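The deposited values are log2 expression levels, made by the authors with R 2.9, limma and RMA per the submitters' processing notes; the sources used here do not give their order, settings or probe set definition. Gene names came from the platform annotation (1 name for 19921 probe sets, none for 1064), and chromosomes and gene order from RefSeq (GRCm38.p6), where 31 of 31 members matched; the build behind the probe sets is not named. Mice were numbered within a genotype by record order, which implies no pairs.

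All 20985 probe sets were fitted with limma 3.58.1 in R 4.3.3 (lmFit, eBayes, genotype alone, two-sided), adjusted by Benjamini-Hochberg over all of them at 0.05; the code was tested on simulated data. The number of arrays limits precision: a member's difference had a median standard error of 0.105. A mean deviation averages a list's values after each gene's mean is taken off. The members and lists were chosen with earlier results of these data known. Named were all members, with array values for those at an unadjusted p under 0.05, the smallest p of each class and the 3 largest SD, and partners at an unadjusted p under 0.05 or with the 2 smallest p of their list. Sema5a and single marker genes got array values after those were seen. Kdr and Flt1 are in both the endothelial and the partner list. Alternatives were other eBayes options, array weights, repeated quantile normalization, median centring, filters on dim probe sets, a block for the lower (3749 to 3753) or higher (3759 to 3763) mouse numbers, and each mouse left out; leaving out both arrays that stand apart was added after seeing the data.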

Additional observations from a re-analysis of the deposited data

Results flagged for a closer look

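In 4 of 72 groups of 4 mice, 1 mouse lay far from the others by Dixon's ratio of its gap to the group's range, past the 95% critical value for 4 values. Chance flags about 1 in 20 such groups, or 3.6 of 72. The 72 groups take in more genes than the 31 members, while the 4 flagged groups are all of member genes. Sema6a had a ratio of 0.970 in knockouts, with knockout 4 at 8.12 and the others at 8.44 to 8.45. Sema7a had 0.906 in wildtypes, with wildtype 1 at 10.38 and the others at 9.74 to 9.80. Sema6b had 0.845 in wildtypes, with wildtype 1 at 9.84 and the others at 9.13 to 9.24. Sema6c had 0.833 in wildtypes, with wildtype 1 at 8.05 and the others at 7.81 to 7.85. Wildtype 1 was thus the distant mouse in 3 of the 4.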

How the results depend on the processing

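Kcnh1 was called in all 17 alternative fits (-1.03 to -0.93), and members were called in 0 of them (0 also at an adjusted p under 0.1). The count over all probe sets was 2, with Tatdn3, under array weights and under repeated quantile normalization. At an unadjusted p under 0.05 the members' count was 2 with array weights (Plxna4, Sema3d), 2 with the mouse number series as a block (Plxna4, Sema3a), 0 without both arrays that stand apart, and 1 to 3 with 1 mouse left out: 2 without knockout 1 (Plxna4, Plxnb2), 3 without knockout 3 (Plxna4, Sema5b, Sema3d) and 3 without wildtype 2 (Plxna4, Sema5b, Sema4d). The members' median ran from -0.093 without knockout 1 to 0.027 with the block. No paired analysis was made because the sources used here do not give litters or pairs of mice.

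Of 31 members, 10 kept their sign in every alternative run that held them, namely Plxna1 (-0.18 to -0.0083), Plxna4 (-0.26 to -0.16), Plxnb1 (-0.21 to -0.11), Plxnb2 (-0.21 to -0.010), Sema3a (0.10 to 0.29), Sema3b (0.072 to 0.21), Sema3d (0.12 to 0.28), Sema4d (-0.25 to -0.095), Sema4f (-0.18 to -0.086) and Sema5b (-0.26 to -0.15), and 21 did not. The cause was not tested. The other eBayes options and the filters on dim probe sets leave a fitted difference unchanged, so those runs could not turn a sign. Sema3a, Sema3b and Sema3d were absent from the run without the dimmest 50%. With the block the sign turned for Nrp2 (0.048), Plxna2 (0.027), Plxna3 (0.028), Plxnb3 (-0.0017), Plxnc1 (0.11), Plxnd1 (0.15), Sema3c (0.023), Sema3e (0.10), Sema3g (-0.065), Sema4c (0.10), Sema4g (-0.0083) and Sema6c (0.075). With array weights it turned for Nrp1 (-0.00049), Plxna3 (0.073), Plxnc1 (0.013), Plxnd1 (0.054), Sema4c (0.029) and Sema6a (0.090), with median centring for Plxna2 (0.013), Sema4c (0.0025) and Sema6a (0.0025), and with repeated quantile normalization for Sema4c (0.0084) and Sema6a (0.014). Without both arrays that stand apart it turned for Nrp1 (-0.097), Sema3c (0.040), Sema3g (-0.0067), Sema4a (-0.047), Sema4b (-0.040) and Sema4g (-0.047). With 1 mouse left out the ranges crossing 0 were -0.054 to 0.11 for Nrp1, -0.036 to 0.021 for Plxna2, -0.086 to 0.071 for Plxna3, -0.0075 to 0.019 for Plxnb3, -0.13 to 0.056 for Plxnc1, -0.18 to 0.076 for Plxnd1, -0.18 to 0.037 for Sema3c, -0.16 to 0.056 for Sema3e, -0.043 to 0.083 for Sema3f, -0.029 to 0.077 for Sema3g, -0.15 to 0.11 for Sema4a, -0.053 to 0.083 for Sema4b, -0.092 to 0.061 for Sema4c, -0.041 to 0.072 for Sema4g, -0.19 to 0.0042 for Sema5a, -0.058 to 0.067 for Sema6a, -0.21 to 0.027 for Sema6b, -0.13 to 0.040 for Sema6c, -0.0058 to 0.14 for Sema6d and -0.18 to 0.035 for Sema7a.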
